A study of Mus musculus with 8 samples.

Results

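The amino acid branch of the stress response and the folding machinery of the endoplasmic reticulum (ER) were examined as 40 named genes in mouse HSPCs, the haematopoietic stem and progenitor cells that give rise to blood. The members were the genes of a list of symbols that was chosen with earlier results of these data known. Shares of members set beside shares of all genes are therefore a description and not a test. All 40 members were among the 24421 genes in the count table. They form an ATF4 and amino acid subset of 23 genes and an ER chaperone subset of 17 genes. RNA sequencing covered 8 libraries in 4 groups of 2, from cells taken out of mice after a primary transplant. The series title gives the genes of the double knockout (dKO) as Hoxa9, which encodes a homeobox factor of blood progenitors, and beta-catenin (Ctnnb1), through which Wnt signals reach the nucleus. dKO_PRMT1 was dKO cells transduced with wild-type PRMT1, a methyltransferase that modifies arginines in proteins. dKO_MUT carried a PRMT1 mutant without enzymatic activity in dKO cells, dKO_EV was dKO cells with an empty vector, and WT_EV was wild-type cells with the same empty vector. Every group was therefore transduced, and the knockout is shared by the 3 dKO groups. The labels used here give no age, strain or sex of the mice, no driver of the deletions and no account of remaining host cells, and their cell type field calls every library dKO, WT_EV included.

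Amino acid shortage, ER stress, haem deficiency and double-stranded RNA each activate a kinase that phosphorylates the translation factor eIF2alpha. General translation then slows while the ATF4 protein is made, and ATF4 switches on genes for amino acid synthesis, amino acid import and tRNA charging. The ER has its own unfolded protein response, in which IRE1 (Ern1) splices the Xbp1 transcript and ATF6 is released from the membrane, and both factors raise chaperones such as BiP (Hspa5). Stem and progenitor cells of the blood are known for low protein synthesis and for sensitivity to ER stress, and granulocyte precursors fold large amounts of granule protein.

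The promoters of the members were read first, because the subsets are defined in textbooks by different DNA elements. RefSeq promoter windows (GRCm38.p6, 250 bases before to 50 after the annotated start, 300 bases in all) were at hand for 36 members, 21 of the ATF4 subset and 15 of the ER subset, and Slc7a5, Wars, Manf and Atf6 had none. The core of the C/EBP-ATF response element, searched as TGATGNAA on both strands, was present in 8 of 21 ATF4 subset genes (38.1%), in 1 of 15 ER genes (6.67%) and in 4.51% of all 27025 genes with a window. The ER stress response element, searched as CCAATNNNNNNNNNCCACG, was present in 7 of 15 ER genes (46.7%), in 0 of 21 ATF4 subset genes and in 0.137% of all genes. The second form of that element, ATTGG and CCACG with any 1 base between them, was found in Herpud1 and in 0.0444% of all genes. TGACGTGG, the unfolded protein response element, was found in no member and in 0.714% of all genes. None of the 20 matches in members overlapped another. The sequences below are given 5′ to 3′ on the gene's own strand, with the match in capitals, for ER genes whose RNA changed and for ATF4 subset genes with contrasting RNA behaviour. The positions given are those of the printed stretches, flanking bases included, with the strand of the gene in brackets. For ER genes they are chr2:34772013-34772055 (plus strand) for Hspa5, chr8:84847063-84847105 (minus) for Calr, chr12:17266479-17266521 (plus) for Pdia6, chr14:118937815-118937857 (plus) for Dnajc3 and chr10:86705521-86705668 (minus) for Hsp90b1. The Hsp90b1 window holds a pair of matches in opposite orientation. Herpud1 (chr8:94386305-94386399, plus) holds the core of the ATF4 element and, nearer the start, the second form of the ER element. The stretches of ATF4 subset genes lie at chr3:50443641-50443691 (minus) for Slc7a11, which again holds a pair in opposite orientation, at chr6:7693213-7693244 (minus) for Asns and at chr11:120643832-120643863 (minus) for Pycr1.
Hspa5: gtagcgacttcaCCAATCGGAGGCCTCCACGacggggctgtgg
Calr: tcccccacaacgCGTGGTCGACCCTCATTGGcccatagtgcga
Pdia6: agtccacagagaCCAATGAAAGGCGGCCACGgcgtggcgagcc
Dnajc3: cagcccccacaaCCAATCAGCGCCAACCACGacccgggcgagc
Hsp90b1: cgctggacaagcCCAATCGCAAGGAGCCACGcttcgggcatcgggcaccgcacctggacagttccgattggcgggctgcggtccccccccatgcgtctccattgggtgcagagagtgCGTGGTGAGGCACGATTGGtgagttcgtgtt
Herpud1: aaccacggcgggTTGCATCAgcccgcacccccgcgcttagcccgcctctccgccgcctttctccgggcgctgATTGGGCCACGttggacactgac
Slc7a11: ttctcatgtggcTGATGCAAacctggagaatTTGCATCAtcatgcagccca
Asns: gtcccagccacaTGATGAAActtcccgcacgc
Pycr1: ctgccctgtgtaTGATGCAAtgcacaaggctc
With the start base as position 0, the matches of Hspa5 span positions -65 to -47 and those of Calr -162 to -144, the Calr match running in the reverse direction. A match of letters is a description of the window and not evidence that a factor binds there.

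Library totals ran from 15531344 to 22329749 counts, both extremes being dKO_EV libraries, and 12744 genes were tested, among them all 40 members. Levels are given as CPM, in which each count is divided by the TMM-scaled total of its own library. The Prmt1 gene (GRCm38, chromosome 7, 44976755 to 44986420) had 981 and 976 CPM in dKO_PRMT1, 1744 and 1758 CPM in dKO_MUT, 190 and 194 CPM in dKO_EV and 188 and 192 CPM in WT_EV, so the mutant insert was counted at a higher level than the wild-type insert. Hoxa9 was at 1.87 to 5.79 CPM in the 6 dKO libraries, against 18.2 and 17.2 CPM in WT_EV. Ctnnb1 was at 360 to 391 CPM in the dKO libraries, against 444 and 455 CPM in WT_EV. Most Ctnnb1 counts thus remained, and counts over the whole gene do not by themselves show its deletion. All 12 markers fixed for HSPCs were tested, and Slamf1 alone averaged under 1 CPM. Xist was at 0 counts in all 6 dKO libraries, against 159 and 121 CPM in WT_EV, and Ddx3y, from the Y chromosome, was at 58.2 to 68.5 CPM in the dKO libraries and at 0 counts in WT_EV. Genotype and sex therefore cannot be told apart in any comparison with WT_EV. For dKO_MUT replicate 2 the genotype field reads PRMT2, whereas its title places it with the PRMT1 mutant, and its Prmt1 level in CPM was close to that of dKO_MUT replicate 1. The labels do not say whether replicates are separate animals, so the p-values reflect library-to-library spread that could be technical alone. These are also bulk samples, in which fewer cells of a type and less RNA per cell cannot be told apart.

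On a per-length scale the ER subset was the more abundant. Calr, a lectin chaperone that binds calcium and folds glycoproteins, averaged 1418 CPM per kb of gene length over the 8 libraries. It was followed by Hspa5 at 473, Hsp90b1 at 467, Pdia3 at 350 and Pdia6 at 221 CPM per kb, and the least abundant ER member was the sensor Ern1 at 10.1 CPM per kb. In the ATF4 subset the highest were Phgdh at 151, Atf4 itself at 142, Shmt2 at 102 and Psat1 at 93.2 CPM per kb. Slc7a11, Gpt2, Pycr1, Chac1 and Trib3 lay between 1.88 and 2.62 CPM per kb, and Vldlr was at 0.700. No member averaged under 1 CPM.

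**Figure D1:**
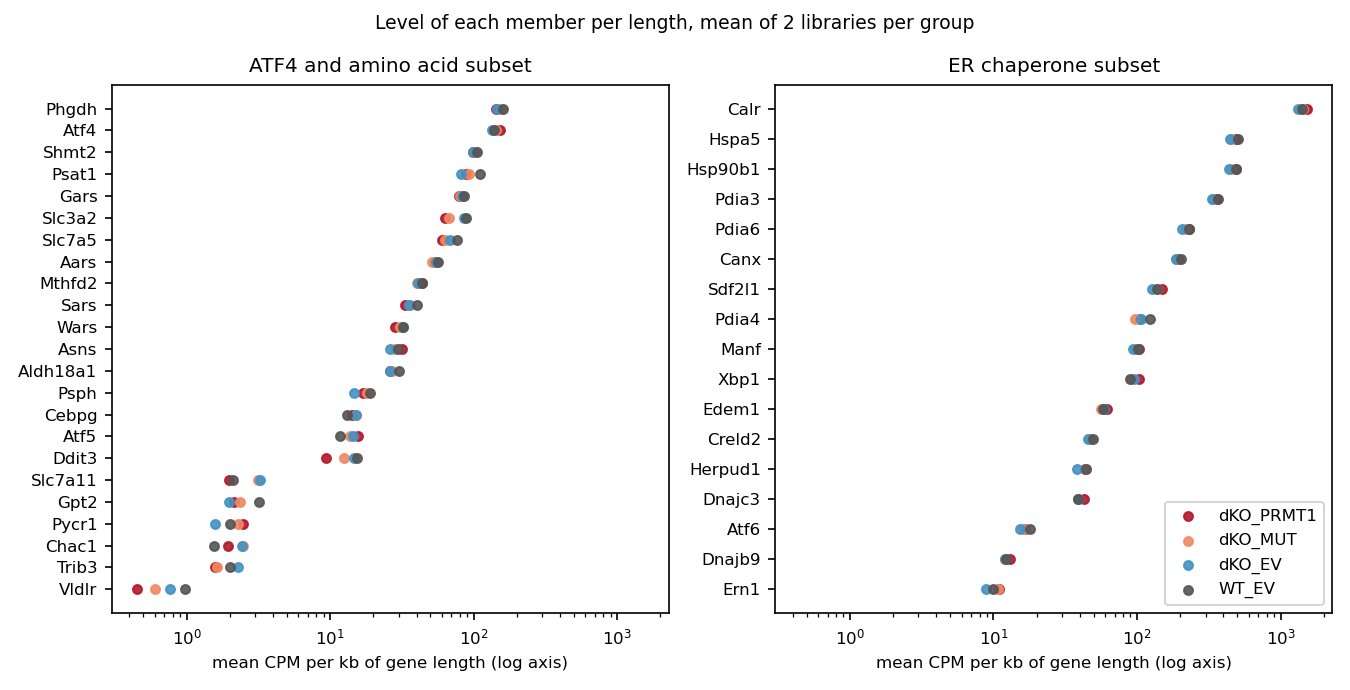
Mean CPM per kb of gene length of the 40 members on a log axis, with 1 point per group (mean of 2 libraries) and members ordered by their mean over all libraries. ER members run from Calr at 1418 to Ern1 at 10.1 CPM per kb and ATF4 subset members from Phgdh at 151 to Vldlr at 0.700, and the spread between groups is small beside the spread between genes.

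In dKO_EV against WT_EV, members of both subsets fell. These groups carry no insert but differ in sex as well as in the knockout, so the falls cannot be assigned to either. At the threshold of the test, 9 of 17 ER members fell (Hspa5, Hsp90b1, Pdia4, Pdia6, Pdia3, Atf6, Canx, Calr and Herpud1), with an adjusted p under 0.05 by the quasi-likelihood test of edgeR after Benjamini-Hochberg adjustment, against 7.00% of all genes called lower and 8.44% called higher. In the ATF4 subset 7 of 23 fell (Psat1, Slc7a5, Gpt2, Aldh18a1, Phgdh, Psph and Sars) and Slc7a11 rose. The median log2 fold change was -0.12 over the ER subset and -0.10 over the ATF4 subset, against -0.00 over all genes tested. Without WT_EV replicate 2, 3 ER members were called, and the ATF4 subset count of 8 became 2 without WT_EV replicate 1, 4 without WT_EV replicate 2 and 5 without dKO_EV replicate 2.

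In dKO_PRMT1 against dKO_EV, which asks what wild-type PRMT1 does in knockout cells, the subsets parted. In the ER subset 9 of 17 members rose (Calr, Hsp90b1, Pdia6, Hspa5, Sdf2l1, Pdia3, Ern1, Dnajc3 and Manf), against 5.96% of all genes called higher, and 16 of 17 had a positive fold change. In the ATF4 subset 2 members rose (Atf4 and Asns) and 4 fell (Slc3a2, Slc7a11, Slc7a5 and Ddit3), against 8.67% of all genes called lower. All 7 tested promyelocyte granule genes, markers of maturing cells with a heavy secretory load, rose here as well, and their part in the result was not tested. The median was 0.13 over the ER subset, -0.03 over the ATF4 subset and 0.00 over all genes. In every comparison a call depends on count level as well as on the size of a change. Here Atf4, at means of 262 and 232 CPM, was called at 0.18, but Trib3, at 3.22 and 4.69 CPM, was not called at -0.53. Many ER members had high counts, and the part of count level in the shares called was not tested. The ER count became 5 without dKO_PRMT1 replicate 1 and 4 without dKO_PRMT1 replicate 2, and the ATF4 subset count of 6 became 3 without dKO_EV replicate 1 and 2 without dKO_PRMT1 replicate 1.

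In dKO_MUT against dKO_EV few members changed. Calr and Herpud1 rose in the ER subset, a share of 11.8% beside 4.24% of all genes called higher, and Psat1 rose while Slc3a2 fell in the ATF4 subset, where 7.08% of all genes were called lower. The median was 0.02 over the ER subset and -0.00 over the ATF4 subset. The ER count of 2 ranged from 0 without dKO_MUT replicate 2 to 4 without dKO_EV replicate 1, and it was 1 without either WT_EV library, dKO_EV replicate 2 or either dKO_PRMT1 library. The ATF4 subset count was 1 without dKO_EV replicate 1 or dKO_MUT replicate 1.

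The inserts were set against each other in dKO_PRMT1 against dKO_MUT, the comparison that varies the enzymatic activity. Slc7a11 fell and Xbp1 and Hspa5 rose, beside 1.43% of all genes called higher and 1.68% called lower. The ER subset had a median of 0.09, with 16 of 17 fold changes positive, and the ATF4 subset a median of -0.07, with 17 of 23 negative. The 2 ER calls were both lost without either dKO_MUT or either dKO_PRMT1 library, and 1 was left without either WT_EV library. The call of Slc7a11 was lost without dKO_MUT replicate 2 or dKO_PRMT1 replicate 2. The insert levels differ as well, since Prmt1 counts were higher in dKO_MUT.

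Against WT_EV, dKO_MUT had 5 ER members lower (Pdia4, Hspa5, Pdia3, Canx and Hsp90b1), and 3 ATF4 subset members lower (Slc3a2, Slc7a5 and Psat1) with Slc7a11 higher, beside 9.96% of all genes called lower and 9.41% called higher. The 5 ER calls became 3 without WT_EV replicate 1 or dKO_MUT replicate 1 and 2 without WT_EV replicate 2 or dKO_MUT replicate 2. The call of Slc7a11 was lost without dKO_MUT replicate 2 (adjusted p = 0.0661). The ATF4 subset count of 4 became 8 without either dKO_EV library and 7 in a fit of the compared groups alone. In dKO_PRMT1 against WT_EV, 9 ATF4 subset members were lower (Slc3a2, Slc7a5, Psat1, Sars, Vldlr, Ddit3, Phgdh, Aldh18a1 and Gpt2) and 2 higher (Atf4 and Atf5), and in the ER subset Xbp1, Calr and Dnajc3 were higher and Pdia4 was lower, beside 12.2% of all genes called lower and 11.0% called higher. Here the ATF4 subset count of 11 became 6 without WT_EV replicate 2 and 7 without dKO_PRMT1 replicate 2, and the ER count of 4 became 2 without WT_EV replicate 1 or dKO_PRMT1 replicate 1.

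**Figure D2:**
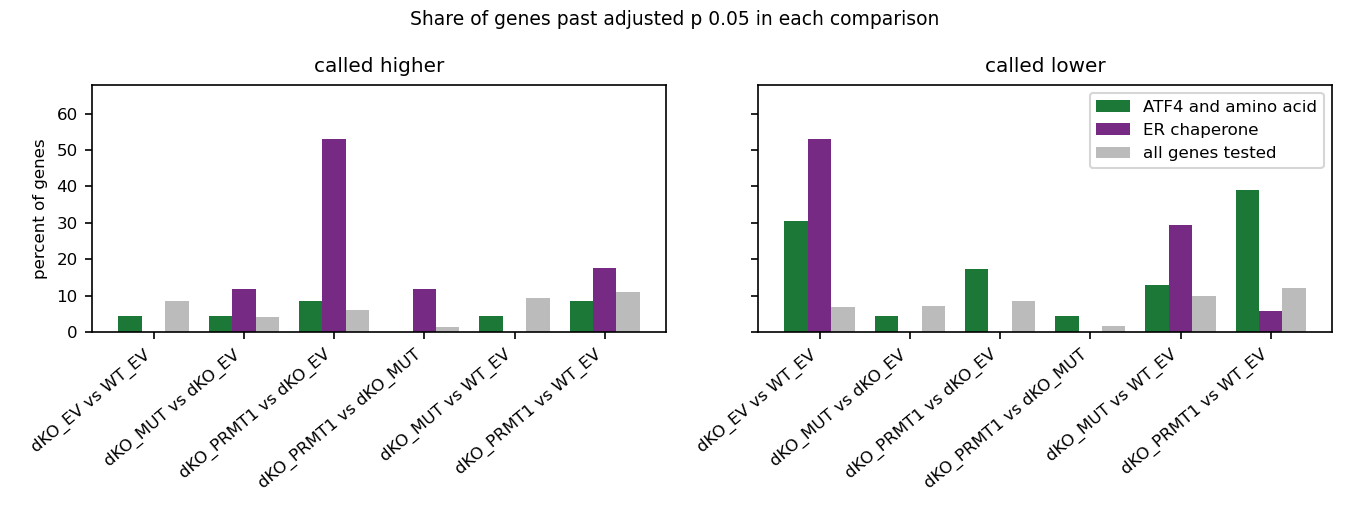
Percent of genes called higher (left) and lower (right) at an adjusted p of 0.05 in each comparison, for the 23 ATF4 subset members, the 17 ER members and all 12744 genes tested. The ER subset stands at 52.9% lower in dKO_EV against WT_EV and at 52.9% higher in dKO_PRMT1 against dKO_EV, while the ATF4 subset reaches 39.1% lower in dKO_PRMT1 against WT_EV.

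The subsets also differed in which group held the lowest mean. dKO_EV was lowest for 14 of 17 ER members and for 7 of 23 ATF4 subset members, and dKO_PRMT1 was lowest for 11 ATF4 subset members. Some of these ranks rest on near-equal means, such as Dnajb9 at 22.5 CPM in dKO_EV, 22.6 in dKO_MUT and 22.7 in WT_EV. How often each group is lowest or highest over all genes was not counted, so these ranks are a description of the members only. The highest mean of ER members was in dKO_PRMT1 for 9, in dKO_MUT for 1 and in WT_EV for 7. For ATF4 subset members it was in dKO_PRMT1 for 4, in dKO_MUT for 1, in dKO_EV for 3 and in WT_EV for 15. Summed over the subset, ER members made up 9627 to 9689 CPM in dKO_PRMT1, 9028 to 9081 in dKO_MUT, 8582 to 8896 in dKO_EV and 9401 to 9571 in WT_EV, so that no group overlapped another. The summed ATF4 subset was at 2384 to 2392 CPM in dKO_PRMT1, 2420 to 2499 in dKO_MUT, 2458 to 2491 in dKO_EV and 2667 to 2691 in WT_EV, where all 6 dKO libraries lay below WT_EV and dKO_MUT overlapped dKO_EV. The comparisons with dKO_EV share its libraries. Of the 9 ER members lower in dKO_EV than in WT_EV, Hspa5, Hsp90b1, Calr, Pdia3 and Pdia6 were higher in dKO_PRMT1 than in dKO_EV, and Canx, Pdia4, Herpud1 and Atf6 were not called there.

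Among the regulators of the ATF4 subset, Atf4 (chromosome 15, 80255184 to 80257545) had 264 and 261 CPM in dKO_PRMT1, 245 and 248 in dKO_MUT, 233 and 232 in dKO_EV and 240 and 237 in WT_EV. The groups did not overlap, but the steps were small. Against dKO_EV, Atf4 rose by 0.18 ± 0.04 on the log2 scale in dKO_PRMT1 (adjusted p = 0.00466), and the fold changes of -0.04 ± 0.04 in dKO_EV against WT_EV and 0.09 ± 0.04 in dKO_MUT against dKO_EV were not called. Without dKO_PRMT1 replicate 1 the adjusted p of the rise was 0.0573. Atf4 was also higher in dKO_PRMT1 than in WT_EV, by 0.14 ± 0.04 (adjusted p = 0.0212, and 0.0811 to 0.166 without each of the 4 libraries compared). ATF4 is controlled mainly at translation, which RNA counts do not measure. Ddit3, which encodes CHOP, a factor of prolonged stress, went the other way. It had 8.37 and 8.05 CPM in dKO_PRMT1, 10.9 and 10.9 in dKO_MUT, 14.0 and 11.6 in dKO_EV and 13.7 and 13.0 in WT_EV, and the dKO_PRMT1 libraries were below all others. It fell by 0.64 ± 0.18 in dKO_PRMT1 against dKO_EV (adjusted p = 0.0137), a call lost without dKO_EV replicate 1 (adjusted p = 0.0907) and without either dKO_PRMT1 library (0.0774 and 0.118). Atf5, a related bZIP factor, had 29.4 and 33.4 CPM in dKO_PRMT1 and 24.4 and 22.4 CPM in WT_EV, and was called only in that comparison (0.42 ± 0.12, adjusted p = 0.0064, and 0.109 without WT_EV replicate 2 or 0.139 without dKO_PRMT1 replicate 2). Trib3, a pseudokinase that restrains ATF4, was at 2.83 to 5.66 CPM over the 8 libraries and Cebpg, a bZIP partner of ATF4, at 58.4 to 73.4 CPM, and neither was called in any of the 6 comparisons.

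At least 1 amino acid transporter changed in each of the 6 comparisons. Slc7a11 (chromosome 3, 50364936 to 50443613), the cystine and glutamate exchanger, had 19.0 and 17.4 CPM in dKO_PRMT1, 25.8 and 32.1 in dKO_MUT, 29.0 and 31.2 in dKO_EV and 20.2 and 18.6 in WT_EV. Both dKO_PRMT1 libraries and both WT_EV libraries lay below all dKO_MUT and dKO_EV libraries. Slc7a11 rose by 0.63 ± 0.13 in dKO_EV against WT_EV (adjusted p = 0.000504) and fell by 0.73 ± 0.13 in dKO_PRMT1 against dKO_EV (adjusted p = 7.95e-05). Both of these calls were kept without any one library. In dKO_PRMT1 against dKO_MUT it was lower by a log2 fold change of -0.67 ± 0.13 (adjusted p = 0.00112, 95% interval -0.93 to -0.40), and the adjusted p was 0.0922 without dKO_MUT replicate 2 and 0.0522 without dKO_PRMT1 replicate 2. In dKO_MUT against dKO_EV its change was not called.

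Slc3a2 (chromosome 19, 8706882 to 8723369) encodes the heavy chain that carries both Slc7a11 and Slc7a5 to the cell surface. It had 188 and 183 CPM in dKO_PRMT1, 202 and 198 in dKO_MUT, 258 and 249 in dKO_EV and 259 and 261 in WT_EV. The 4 libraries with an insert lay below the 4 without. Slc3a2 fell by 0.45 ± 0.05 in dKO_PRMT1 (adjusted p = 2.91e-09) and by 0.34 ± 0.05 in dKO_MUT (adjusted p = 9.26e-07), both against dKO_EV and both kept without any one library. The difference between the inserts was -0.11 ± 0.05 (adjusted p = 0.305, 95% interval -0.20 to -0.01) and was not called. Slc7a5 (chromosome 8, 121881146 to 121907686), the importer of large neutral amino acids, had 205 and 218 CPM in dKO_PRMT1, 217 and 228 in dKO_MUT, 243 and 234 in dKO_EV and 272 and 265 in WT_EV. The insert groups overlapped each other and lay below dKO_EV, which lay below WT_EV. It fell by 0.17 ± 0.05 in dKO_EV against WT_EV (adjusted p = 0.0105, but 0.125 without WT_EV replicate 1 and 0.0671 without dKO_EV replicate 2). It fell by 0.17 ± 0.05 in dKO_PRMT1 against dKO_EV too (adjusted p = 0.0118, but 0.0736 without dKO_EV replicate 1 and 0.253 without dKO_PRMT1 replicate 1).

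**Figure D3:**
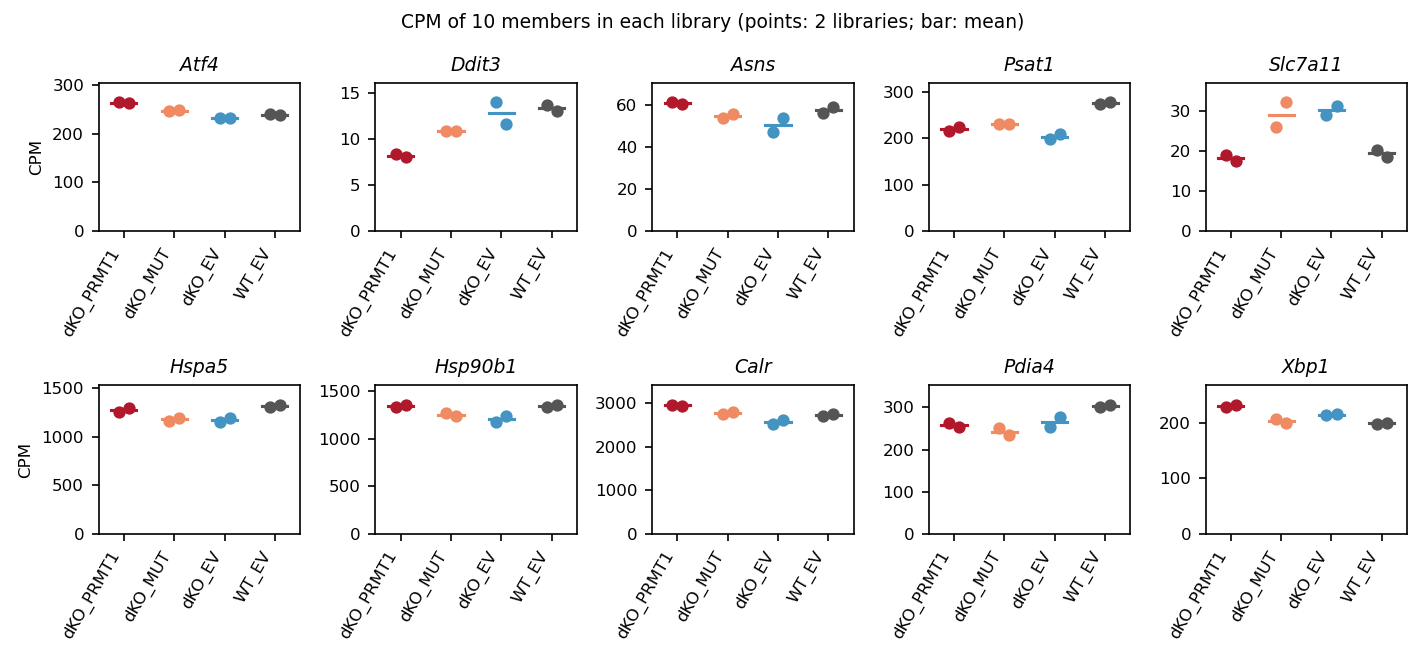
CPM of 10 members in each library, with points for the 2 libraries of a group and a bar at their mean, axes from 0. Slc7a11 is low in dKO_PRMT1 and WT_EV and high in dKO_MUT and dKO_EV, and Pdia4 is higher in WT_EV than in the 3 dKO groups. Hspa5, Hsp90b1 and Calr have their lowest mean in dKO_EV, but dKO_MUT and dKO_EV libraries overlap for Hspa5 and Hsp90b1.

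The called enzymes of serine, proline and alanine metabolism were lower in dKO_EV than in WT_EV. Psat1 (chromosome 19, 15905123 to 15925059), the aminotransferase of serine synthesis, had 215 and 224 CPM in dKO_PRMT1, 230 and 230 in dKO_MUT, 198 and 209 in dKO_EV and 274 and 277 in WT_EV. WT_EV stood above all dKO libraries, and dKO_EV was the lowest. Psat1 fell by 0.44 ± 0.05 in dKO_EV against WT_EV (adjusted p = 8.52e-09), by 0.26 ± 0.05 in dKO_MUT against WT_EV (adjusted p = 4.2e-05) and by 0.33 ± 0.05 in dKO_PRMT1 against WT_EV (adjusted p = 8.3e-07), and it rose by 0.17 ± 0.05 in dKO_MUT against dKO_EV. That rise had an adjusted p of 0.0114, and 0.0852 without dKO_EV replicate 1, 0.0546 without dKO_MUT replicate 1 and 0.0611 without dKO_MUT replicate 2. Phgdh, which opens the serine pathway, fell by 0.14 ± 0.04 in dKO_EV against WT_EV (adjusted p = 0.0237), and Psph, which closes it, fell by 0.36 ± 0.12 (adjusted p = 0.0321). The 3 enzymes of the pathway were therefore lower together, but the call of Phgdh was lost without WT_EV replicate 1, WT_EV replicate 2 or dKO_EV replicate 2 (adjusted p = 0.13, 0.112 and 0.0978). The call of Psph was lost without any of the 4 libraries compared (adjusted p up to 0.244 without WT_EV replicate 2) and with the compared groups alone (0.0533). Gpt2, the mitochondrial alanine aminotransferase, had 8.53 and 6.83 CPM in dKO_PRMT1, 8.06 and 8.95 in dKO_MUT, 6.87 and 7.44 in dKO_EV and 11.4 and 11.6 in WT_EV, with every dKO library below WT_EV. It fell by 0.68 ± 0.21 in dKO_EV against WT_EV (adjusted p = 0.0185), a call lost without WT_EV replicate 1, WT_EV replicate 2 or dKO_EV replicate 1 (adjusted p = 0.105, 0.129 and 0.0601). Aldh18a1, of proline synthesis, fell by 0.22 ± 0.07 in that comparison (adjusted p = 0.021, and 0.0997, 0.12 and 0.227 without WT_EV replicate 1, WT_EV replicate 2 and dKO_EV replicate 2).

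Asns, which makes asparagine, had 61.2 and 60.5 CPM in dKO_PRMT1, 53.7 and 55.7 in dKO_MUT, 47.3 and 53.9 in dKO_EV and 56.0 and 59.0 in WT_EV. The dKO_PRMT1 libraries were the highest, and Asns rose by 0.26 ± 0.08 against dKO_EV (adjusted p = 0.032). Leaving out dKO_EV replicate 1 gave an adjusted p of 0.214, and leaving out the first or the second dKO_PRMT1 library gave 0.161 or 0.14. Vldlr, a lipoprotein receptor raised by ER stress, was at 4.21 and 3.34 CPM in dKO_PRMT1 and at 7.05 and 9.10 CPM in WT_EV, a log2 fold change of -1.09 ± 0.26 (adjusted p = 0.00177, and 0.066 without WT_EV replicate 2 or 0.0522 without dKO_PRMT1 replicate 2). Other enzymes were called in no comparison. Shmt2, the mitochondrial serine hydroxymethyltransferase, ranged from 215 to 250 CPM, and Mthfd2, of mitochondrial folate metabolism, from 78.5 to 93.6 CPM. Pycr1, the last enzyme of proline synthesis, ranged from 4.45 to 7.92 CPM, and Chac1, which degrades glutathione, from 2.18 to 4.75 CPM.

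Of the aminoacyl-tRNA synthetases among the members, which charge tRNAs with amino acids, Sars alone was called by edgeR on all libraries. It had 119 and 127 CPM in dKO_PRMT1, 131 and 135 in dKO_MUT, 123 and 140 in dKO_EV and 154 and 143 in WT_EV, and every dKO library was below both WT_EV libraries. Sars fell by 0.28 ± 0.06 in dKO_PRMT1 against WT_EV (adjusted p = 0.000739), which was kept without any one library. Its fall by 0.18 ± 0.06 in dKO_EV against WT_EV was near the threshold (adjusted p = 0.048). That call was lost without WT_EV replicate 1 (0.435), dKO_EV replicate 1 (0.366), dKO_MUT replicate 2 (0.0513) or either dKO_PRMT1 library (0.0543 and 0.0659), and with DESeq2 (adjusted p = 0.0912), limma voom (0.0607) or the compared groups alone (0.0824). Wars ranged from 76.6 to 94.8 CPM, Aars from 176 to 213 CPM and Gars from 189 to 205 CPM. Other settings called Wars lower in dKO_PRMT1 than in WT_EV, limma voom (adjusted p = 0.0488) and the compared groups alone (0.0267) among them, and called Aars lower in dKO_MUT than in WT_EV, limma voom (0.0481) and the fit with no count filter (0.026) among them.

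**Figure D4:**
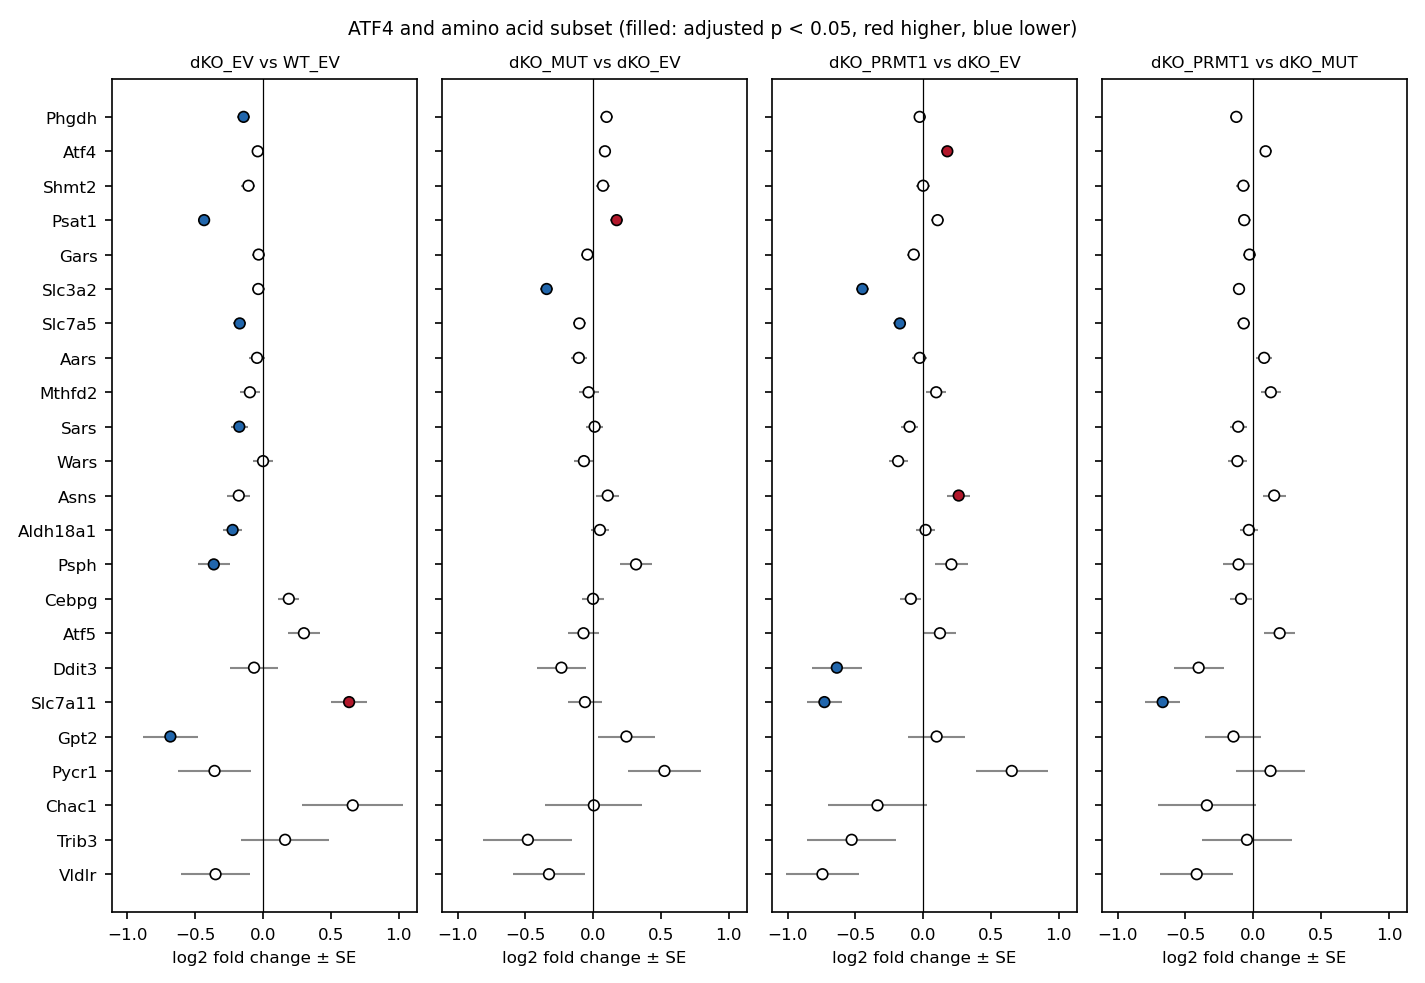
Log2 fold change ± SE of the 23 ATF4 subset members in 4 comparisons, members ordered by level per length, with filled points for calls (red higher, blue lower) and open points for members not called. Slc3a2 is lower with both inserts, Slc7a11 is higher in dKO_EV against WT_EV and lower in dKO_PRMT1 against dKO_EV and dKO_MUT, and low members such as Vldlr, Trib3 and Chac1 have wide errors.

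In the ER subset the main chaperones of the lumen moved by small, tight steps. Hspa5 (BiP; chromosome 2, 34772090 to 34776529), the central HSP70 of the ER, had 1260 and 1301 CPM in dKO_PRMT1, 1168 and 1191 in dKO_MUT, 1150 and 1192 in dKO_EV and 1305 and 1333 in WT_EV. The dKO_MUT and dKO_EV libraries overlapped and lay below the other groups. Hspa5 fell by 0.17 ± 0.03 in dKO_EV against WT_EV (adjusted p = 0.000232), kept without any one library, and rose by 0.13 ± 0.03 in dKO_PRMT1 against dKO_EV (adjusted p = 0.00557, but 0.0509 without dKO_EV replicate 1 and 0.157 without dKO_PRMT1 replicate 2). In dKO_PRMT1 against dKO_MUT it was higher by 0.12 ± 0.03 (adjusted p = 0.0368). That call was lost without either WT_EV library (0.0539 and 0.0538), either dKO_MUT library (0.284 and 0.132) or either dKO_PRMT1 library (0.144 and 0.476). Hsp90b1 (GRP94; chromosome 10, 86690841 to 86705444), the ER's HSP90, had 1332 and 1353 CPM in dKO_PRMT1, 1271 and 1238 in dKO_MUT, 1179 and 1243 in dKO_EV and 1334 and 1362 in WT_EV. It fell by 0.15 ± 0.03 in dKO_EV against WT_EV (adjusted p = 0.000915) and rose by 0.15 ± 0.03 in dKO_PRMT1 against dKO_EV (adjusted p = 0.00142), both kept without any one library, and dKO_PRMT1 overlapped WT_EV.

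Among co-chaperones and other factors induced by ER stress, Dnajc3, Sdf2l1 and Manf rose in dKO_PRMT1 against dKO_EV, and Dnajb9 and Creld2 were not called. Dnajc3, a co-chaperone of BiP, had 220 and 226 CPM in dKO_PRMT1, 203 and 201 in dKO_MUT, 198 and 203 in dKO_EV and 201 and 202 in WT_EV, so that the dKO_PRMT1 libraries alone stood apart. It rose by 0.15 ± 0.05 against dKO_EV (adjusted p = 0.0271, and 0.0956, 0.0774 and 0.229 without dKO_EV replicate 1, dKO_PRMT1 replicate 1 and dKO_PRMT1 replicate 2). Sdf2l1, part of ER chaperone complexes, had 161 and 168 CPM in dKO_PRMT1, 144 and 161 in dKO_MUT, 141 and 142 in dKO_EV and 150 and 153 in WT_EV. It rose by 0.22 ± 0.06 in dKO_PRMT1 against dKO_EV (adjusted p = 0.00627, and 0.118 without dKO_PRMT1 replicate 2). Manf, a secreted factor induced by ER stress, rose by 0.15 ± 0.05 there (adjusted p = 0.0367, and 0.27, 0.0945 and 0.269 without dKO_EV replicate 1, dKO_PRMT1 replicate 1 and dKO_PRMT1 replicate 2, or 0.0543 with the compared groups alone). Dnajb9, another BiP co-chaperone and a target of spliced XBP1, was at 19.9 to 26.2 CPM over the 8 libraries, and Creld2, also induced by ER stress, at 58.3 to 69.4 CPM, with no call in any comparison.

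The lectin chaperones bind sugar-tagged proteins. Calr was the member of the pair called against dKO_EV, and both were called lower in dKO_EV than in WT_EV. Calr (chromosome 8, 84842088 to 84846931) had 2967 and 2942 CPM in dKO_PRMT1, 2753 and 2795 in dKO_MUT, 2517 and 2603 in dKO_EV and 2714 and 2754 in WT_EV. dKO_PRMT1 was above every other library and dKO_EV below every other. Against dKO_EV it rose by 0.21 ± 0.03 in dKO_PRMT1 (adjusted p = 1.44e-06), kept without any one library, and by 0.12 ± 0.03 in dKO_MUT (adjusted p = 0.00569, and 0.0752 without dKO_MUT replicate 2). The difference of 0.09 ± 0.03 between the inserts (95% interval 0.03 to 0.15) was not called by edgeR on all libraries (adjusted p = 0.0912). It was called higher in dKO_PRMT1 with DESeq2 (0.0248), limma voom (0.0057) and the compared groups alone (0.0388), and without either dKO_EV library (0.0423 and 0.0427), so its call depends on the setting. The fall of Calr by 0.09 ± 0.03 in dKO_EV against WT_EV had an adjusted p of 0.0223, and 0.0821, 0.197 and 0.11 without WT_EV replicate 1, WT_EV replicate 2 and dKO_EV replicate 1, or 0.0786 with the compared groups alone. Canx, the membrane-bound counterpart, had 815 and 848 CPM in dKO_PRMT1, 809 and 803 in dKO_MUT, 791 and 805 in dKO_EV and 859 and 880 in WT_EV. It fell by 0.12 ± 0.03 in dKO_EV against WT_EV (adjusted p = 0.0115, and 0.151 without WT_EV replicate 2), with all dKO libraries below WT_EV.

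The disulphide isomerases, which form and reshuffle disulphide bonds, divided. Pdia6 had 497 and 488 CPM in dKO_PRMT1, 450 and 479 in dKO_MUT, 425 and 445 in dKO_EV and 477 and 495 in WT_EV. It fell by 0.16 ± 0.04 in dKO_EV against WT_EV (adjusted p = 0.00525, and 0.105 without WT_EV replicate 2 or 0.0533 without dKO_EV replicate 1) and rose by 0.18 ± 0.04 in dKO_PRMT1 against dKO_EV (adjusted p = 0.00169), which was kept without any one library. Pdia3, the partner of the lectin chaperones, had 958 and 951 CPM in dKO_PRMT1, 897 and 891 in dKO_MUT, 872 and 897 in dKO_EV and 945 and 988 in WT_EV, with dKO_MUT and dKO_EV overlapping below the other groups. Its rise by 0.11 ± 0.03 in dKO_PRMT1 against dKO_EV had an adjusted p of 0.0246, and 0.114, 0.16 and 0.128 without dKO_EV replicate 1, dKO_PRMT1 replicate 1 and dKO_PRMT1 replicate 2. Pdia4 (chromosome 6, 47796141 to 47813512) was different, with 262 and 254 CPM in dKO_PRMT1, 250 and 234 in dKO_MUT, 254 and 277 in dKO_EV and 300 and 307 in WT_EV. It was lower than WT_EV by log2 fold changes of -0.23 ± 0.05 in dKO_PRMT1 (adjusted p = 0.000258) and -0.33 ± 0.05 in dKO_MUT (adjusted p = 1.49e-06), both kept without any one library. In dKO_EV it was lower by -0.19 ± 0.05 (adjusted p = 0.00445, and 0.0534 without WT_EV replicate 2 or 0.082 without dKO_EV replicate 1). Against dKO_EV, Pdia4 was not called by edgeR on all libraries with either insert. In dKO_MUT it was called lower than in dKO_EV with no count filter (adjusted p = 0.0489), with at least 10 counts in every library (0.0442), without dKO_EV replicate 1 (0.0119) and without dKO_MUT replicate 1 (0.0458).

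The sensors and factors of the unfolded protein response differed in which comparisons they were called. Xbp1 (chromosome 11, 5520641 to 5525993) had 228 and 233 CPM in dKO_PRMT1, 207 and 200 in dKO_MUT, 214 and 216 in dKO_EV and 199 and 200 in WT_EV. It was higher in dKO_PRMT1 than in WT_EV by 0.21 ± 0.05 (adjusted p = 0.000908), kept without any one library, and higher than in dKO_MUT by 0.18 ± 0.05 (adjusted p = 0.0224). The call against dKO_MUT was lost without either dKO_MUT library (0.064 and 0.253) or either dKO_PRMT1 library (0.149 and 0.271). Gene counts do not separate spliced from unspliced Xbp1. Ern1, the sensor that splices it, had 46.3 and 41.2 CPM in dKO_PRMT1, 44.0 and 41.5 in dKO_MUT, 37.1 and 33.4 in dKO_EV and 38.6 and 40.8 in WT_EV. It rose by 0.31 ± 0.10 in dKO_PRMT1 against dKO_EV (adjusted p = 0.027, and 0.174 without dKO_EV replicate 2 or 0.312 without dKO_PRMT1 replicate 1). Atf6, the sensor cut in the Golgi, had 128 and 121 CPM in dKO_PRMT1, 127 and 117 in dKO_MUT, 116 and 114 in dKO_EV and 140 and 128 in WT_EV, and fell by 0.22 ± 0.06 in dKO_EV against WT_EV (adjusted p = 0.0108, and 0.278 without WT_EV replicate 1). Herpud1, which helps to extract misfolded proteins, had 85.2 and 76.2 CPM in dKO_PRMT1, 79.5 and 86.4 in dKO_MUT, 74.7 and 67.5 in dKO_EV and 82.2 and 83.6 in WT_EV, with dKO_EV below all other libraries. It fell by 0.23 ± 0.08 in dKO_EV against WT_EV (adjusted p = 0.0392) and rose by 0.23 ± 0.08 in dKO_MUT against dKO_EV (adjusted p = 0.0482). The fall was lost without WT_EV replicate 1, WT_EV replicate 2 or dKO_EV replicate 2 (0.129, 0.195 and 0.245) and with DESeq2 (0.0702) or the compared groups alone (0.0555). The rise was lost with DESeq2 (0.0793), the compared groups alone (0.0866) or at least 10 counts in every library (0.0501), and without any library but dKO_EV replicate 1 and dKO_MUT replicate 1 (adjusted p up to 0.323). Edem1, a lectin of ER-associated degradation, ranged from 326 to 367 CPM and was not called.

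**Figure D5:**
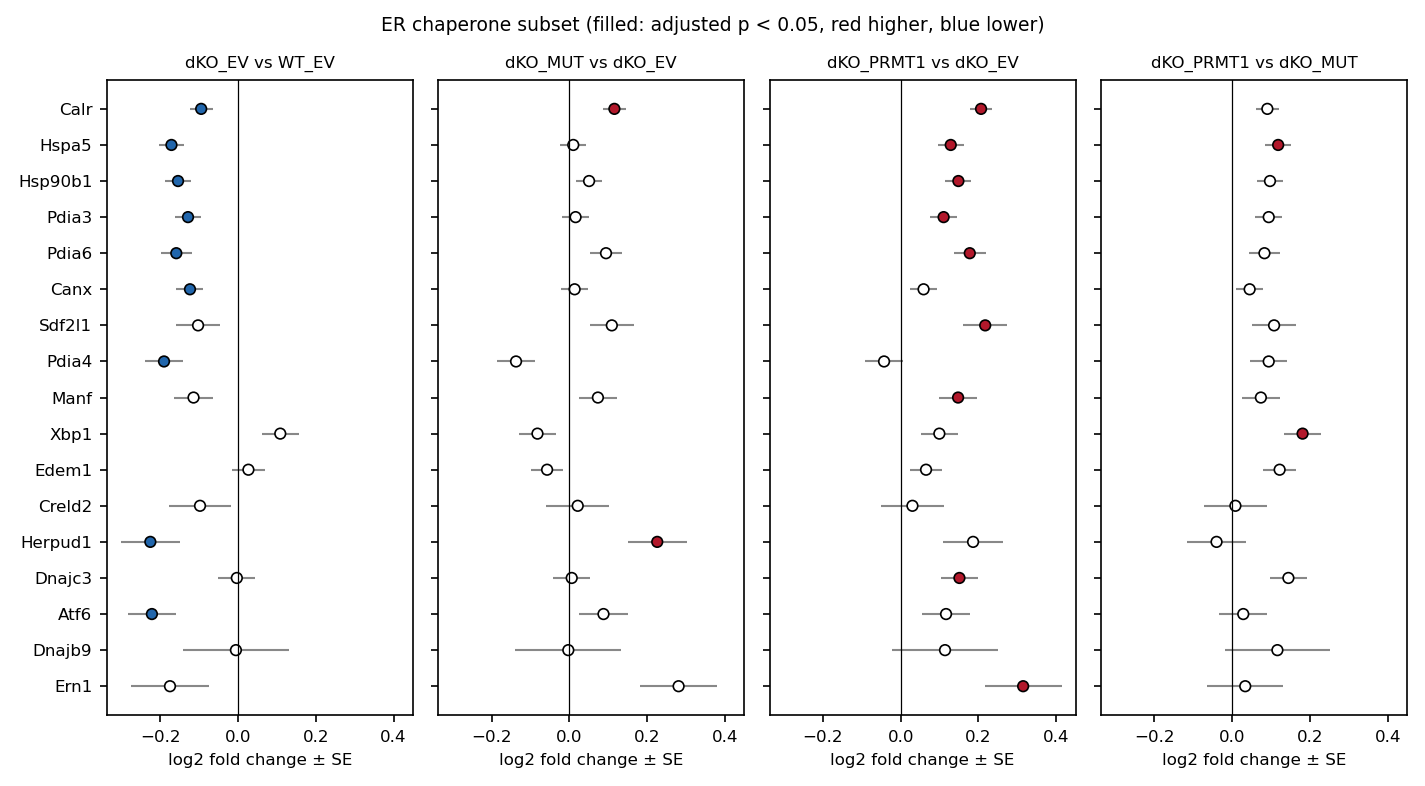
Log2 fold change ± SE of the 17 ER members in 4 comparisons, members ordered by level per length, with filled points for calls (red higher, blue lower) and open points for members not called. In dKO_EV against WT_EV 9 members are called lower, and in dKO_PRMT1 against dKO_EV 9 are called higher, with 16 of 17 points right of 0.

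Set against the promoter windows, the 7 ER genes with an ER stress response element held 5 of those called higher in dKO_PRMT1 against dKO_EV (Calr, Dnajc3, Hsp90b1, Hspa5 and Pdia6, but not Canx or Creld2), and the 8 without a match held 3. Their median log2 fold changes were 0.15 with a match and 0.11 without. In the ATF4 subset, 1 of the 8 genes with the core element was higher and 1 lower in that comparison, and 2 of the 13 without it were lower and 1 higher. Asns and Slc7a11, both with the core, moved in opposite directions there.

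Other genes of the same pathways were counted from lists that hold none of the members. These lists too were chosen with earlier results of these data known. The kinases and phosphatase subunits of eIF2, listed together with eIF2alpha itself (Eif2s1), numbered 8 in all. Eif2s1 had 173 and 164 CPM in dKO_EV and 196 and 200 in WT_EV, and was called lower. Ppp1r15b, a phosphatase subunit, had 276 and 269 CPM in dKO_PRMT1, 276 and 279 in dKO_MUT and 246 and 250 in dKO_EV. It was called higher with both inserts. Eif2ak2 (PKR), the kinase activated by double-stranded RNA, fell against dKO_EV by 0.33 ± 0.06 in dKO_PRMT1 (adjusted p = 0.000145) and by 0.40 ± 0.06 in dKO_MUT (adjusted p = 9.83e-06). Eif2ak4 (GCN2), the sensor of uncharged tRNA, rose by 0.34 ± 0.11 in dKO_PRMT1 against dKO_EV (adjusted p = 0.0268). Eif2ak3 (PERK), the ER kinase, was higher in dKO_EV than in WT_EV by 0.34 ± 0.09 (adjusted p = 0.00915). In dKO_PRMT1 against dKO_EV 2 of the 8 were higher (25%) and 1 lower (12.5%), beside 5.96% and 8.67% of all genes. In dKO_MUT against dKO_EV 1 was higher and 1 lower, beside 4.24% and 7.08%. In dKO_EV against WT_EV 1 was higher and 1 lower, beside 8.44% and 7.00%. A share of 12.5% is 1 gene here. The 2 members of this list higher in dKO_PRMT1 against dKO_EV became 1 without either WT_EV library or dKO_EV replicate 1, and 0 without dKO_EV replicate 2 or either dKO_PRMT1 library. The call of 1 member higher in dKO_EV against WT_EV was lost without WT_EV replicate 1 or dKO_EV replicate 1. Among 22 tested of 25 further ATF4 targets, 1 rose and 4 fell in dKO_PRMT1 against dKO_EV, 2 rose and 3 fell in dKO_MUT against dKO_EV, and 2 rose and 4 fell in dKO_EV against WT_EV. The shares higher were 4.55%, 9.09% and 9.09% in that order, beside 5.96%, 4.24% and 8.44% of all genes, and the shares lower were 18.2%, 13.6% and 18.2%, beside 8.67%, 7.08% and 7.00%. Atf3, a stress-induced repressor, fell by 0.79 ± 0.09 in dKO_PRMT1 and by 1.01 ± 0.09 in dKO_MUT, and Sqstm1, the autophagy receptor, by 0.50 ± 0.05 and 0.39 ± 0.05 in the same order, all against dKO_EV. The 4 lower in dKO_EV against WT_EV became 2 without dKO_MUT replicate 2, with DESeq2 or with the compared groups alone. The 2 higher there became 1 without WT_EV replicate 2 or dKO_EV replicate 1, the 2 higher in dKO_MUT became 1 without dKO_MUT replicate 2, and the 1 higher in dKO_PRMT1 became 4 without dKO_EV replicate 1 and 2 without dKO_PRMT1 replicate 1 or either dKO_MUT library. Of 16 further cytosolic synthetases, 3 fell in dKO_EV against WT_EV (Nars, Eprs and Yars), 18.8% beside 7.00% of all genes. In dKO_PRMT1 and dKO_MUT against dKO_EV 0 were called by edgeR, DESeq2 or limma voom, with 1 and 2 at an unadjusted p under 0.05. Neither result held with each dKO_EV library left out. In dKO_MUT the direction called depended on which dKO_EV library was left out.

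Further ER genes were counted beside the same shares of all genes. These were 7.00% lower and 8.44% higher in dKO_EV against WT_EV and 5.96% higher and 8.67% lower in dKO_PRMT1 against dKO_EV. In dKO_MUT against dKO_EV they were 4.24% higher and 7.08% lower. Of 25 tested among 26 further folding factors, 4 fell (16%) and 1 rose (4%) in dKO_EV against WT_EV, and 6 rose (24%) and 1 fell (4%) in dKO_PRMT1 against dKO_EV. Ero1l, the oxidase that supplies disulphide bonds, fell by 0.46 ± 0.05 in dKO_EV against WT_EV and rose by 0.23 ± 0.05 in dKO_PRMT1 against dKO_EV. P4hb, the archetypal disulphide isomerase, fell by 0.29 ± 0.03 and rose by 0.18 ± 0.03 in these comparisons. Both were also higher in dKO_PRMT1 than in dKO_MUT, Ero1l by 0.19 ± 0.05 (adjusted p = 0.0237) and P4hb by 0.14 ± 0.03 (adjusted p = 0.00712), calls that were the 2 of this list and became 0 without any dKO_MUT or dKO_PRMT1 library. The 6 higher in dKO_PRMT1 became 3 without dKO_PRMT1 replicate 1. Of 24 genes of the translocon and the oligosaccharyltransferase, which bring proteins into the ER and attach sugars, 12 fell in dKO_EV against WT_EV (50%). In dKO_PRMT1 against dKO_EV 6 rose (25%). Sec61g changed by -0.43 ± 0.06 and 0.27 ± 0.06 in these comparisons. In dKO_MUT against dKO_EV 8.33% of this list rose, and 8% of the further folding factors. The 12 became 7, 4 and 5 without WT_EV replicate 1, WT_EV replicate 2 and dKO_EV replicate 1, and the 6 became 2 and 1 without dKO_PRMT1 replicates 1 and 2. In dKO_MUT against dKO_EV 2 of these genes rose (Sec61g and Spcs3), 0 without dKO_MUT replicate 1 and 1 without dKO_MUT replicate 2. The folding factors Uggt1 and Hyou1 rose there as well, 1 without dKO_EV replicate 1 and 0 without dKO_MUT replicate 1. Of 19 genes of ER-associated degradation, 1 was called in each of these 3 comparisons (5.26%, below or near the share of all genes). Edem3 fell by 0.45 ± 0.08 in dKO_EV against WT_EV. It rose by 0.24 ± 0.08 in dKO_MUT against dKO_EV (adjusted p = 0.046), which was lost without dKO_EV replicate 1 or dKO_MUT replicate 1. Ubxn4 rose by 0.17 ± 0.06 in dKO_PRMT1 against dKO_EV (adjusted p = 0.0428), which was lost without either WT_EV library, either dKO_EV library or dKO_PRMT1 replicate 2. Of 8 tested among 9 further sensors and proteases, 0 were called in these 3 comparisons by edgeR, DESeq2 or limma voom, with 2, 3 and 1 at an unadjusted p under 0.05 in dKO_PRMT1 against dKO_EV, dKO_MUT against dKO_EV and dKO_EV against WT_EV. For both inserts against dKO_EV this did not hold with dKO_EV replicate 1 left out.

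Markers of maturing blood cells, many of them secretory, moved with the groups. The 7 tested promyelocyte granule genes of 8 listed summed to 16361 to 16381 CPM in dKO_PRMT1, 13672 to 14201 in dKO_MUT, 10964 to 11162 in dKO_EV and 10663 to 10837 in WT_EV, and all 7 were higher in dKO_PRMT1 than in dKO_EV and than in dKO_MUT. Of all genes, 5.96% and 1.43% were called higher in these comparisons, in that order. In dKO_EV against WT_EV, where 9 ER members fell, 4 of the 7 rose (57.1%) and 2 fell (28.6%), beside 8.44% and 7.00% of all genes. The 10 neutrophil granule genes summed to 17618 to 17956 CPM in dKO_PRMT1, 20394 to 20521 in dKO_MUT, 15509 to 16372 in dKO_EV and 8540 to 8747 in WT_EV. All 10 were higher in dKO_EV than in WT_EV, beside 8.44% of all genes. In dKO_PRMT1 against dKO_EV 5 were called higher (50%) and 2 lower (20%), beside 5.96% and 8.67% of all genes, so the sum does not follow every gene. Mast cell and basophil genes (8 tested of 10, Mcpt4 at 0 and Tpsb2 under 1 CPM) summed to 553 to 559, 970 to 990, 850 to 851 and 1475 to 1519 CPM in dKO_PRMT1, dKO_MUT, dKO_EV and WT_EV. Monocyte and macrophage genes (12) summed to 3583 to 3671 CPM in dKO_PRMT1, 3451 to 3483 in dKO_MUT, 5438 to 5764 in dKO_EV and 7034 to 7115 in WT_EV. In dKO_PRMT1 against dKO_EV 6 of the 8 tested mast cell and basophil genes were called lower (75%) and 0 higher. Of the 12 monocyte and macrophage genes, 9 were lower there (75%) and 1 higher (8.33%), beside 8.67% and 5.96% of all genes. B and plasma cell genes (5 tested of 12, with Cd79a, Ms4a1, Pax5, Ebf1, Jchain and Mzb1 among those averaging under 1 CPM) summed to at most 41.6 CPM in any library. Erythroid genes (7 tested of 10, Hba-a1 and Hbb-b1 at 0) summed to 389 to 403 CPM in dKO_PRMT1, 346 to 358 in dKO_MUT, 383 to 391 in dKO_EV and 502 to 516 in WT_EV. Tfrc, which rose, held 330 and 341 CPM of this sum in dKO_PRMT1 and 267 and 275 in dKO_EV. Of the 7, 1 was called higher (14.3%) and 4 lower (57.1%) in dKO_PRMT1 against dKO_EV, beside 5.96% and 8.67% of all genes. Their median log2 fold change there was -0.95, so the sum does not follow most of the list. The 12 HSPC markers summed to 988 to 1008 CPM in dKO_PRMT1, 1057 to 1086 in dKO_MUT, 1097 to 1135 in dKO_EV and 1274 to 1297 in WT_EV. In dKO_EV against WT_EV 2 of them were called higher (16.7%) and 5 lower (41.7%), beside 8.44% and 7.00% of all genes. The part of these cell types in the changes of either subset was not tested.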

How the data were processed

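RNeasy Plus Micro columns gave the total RNA, and a directional NEB Ultra II kit the libraries, per the labels' protocols. The submitters' processing notes name Trim Galore 0.6.6, STAR 2.7.6a and featureCounts with GRCm38 (mm10), with no strand setting or annotation stated, so reads of overlapping and antisense genes cannot be told apart. The authors deposited raw counts and a length for each gene in 1 table whose 8 count columns were all used. Groups came from the sample titles.

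Counts were tested in R 4.3.3 with edgeR 4.0.16: filterByExpr, TMM scaling and the robust quasi-likelihood test on a model of the 4 groups fitted to all 8 libraries (4 residual degrees of freedom, a median of 30.4 prior degrees and a common biological coefficient of variation of 0.0637). P-values were Benjamini-Hochberg adjusted over 12744 genes, with a threshold of 0.05, and each standard error is the fold change divided by the root of its F. CPM used TMM-scaled library sizes, and CPM per kb the deposited length. Replicates differed by more than sampling noise (chi-square per degree of freedom 3.65 to 6.43), and all 8 libraries were kept. The correlations of their differences between groups were -0.0321 to -0.00168, so no shift common to same-numbered libraries was seen. This cannot show whether same-numbered libraries share an animal or a run, and the labels do not say.

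The steps were tested on simulated data. The results were recomputed with each library left out, a replicate block, the compared groups alone, limma voom 3.58.1, DESeq2 1.42.0, its size factors in edgeR, and 2 other filters on low counts. Members and lists were chosen with earlier results of these data known, so no test over a list is given. Values per library are given for Atf4 and Hspa5 and for up to 4 called members of each subset with the smallest p per comparison, with other members added after their values were seen; other lists name up to 3 called genes. No protein sequences were used here.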

Additional observations from a re-analysis of the deposited data

How the results depend on the processing

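Of 63 calls of single members over the 6 comparisons, none changed direction under any setting tried, though some members that were not called changed sign. Of the 63 calls, 23 were kept without any one library and 40 were lost without at least 1. DESeq2 size factors and the replicate block lost 0 and gained 0. Dropping the count filter lost 0 and gained 4, a minimum of 10 counts in every library lost 1 and gained 4, DESeq2 lost 3 and gained 1, limma voom lost 1 and gained 3, and the compared groups alone lost 6 and gained 5. With the replicate block the ER counts stayed at 9 in dKO_EV against WT_EV and 9 in dKO_PRMT1 against dKO_EV. Counts of called members moved by over 1.5 times with all libraries in these cases: ATF4 subset, dKO_MUT against WT_EV, 4 to 7 with the compared groups alone, and ER subset, dKO_MUT against dKO_EV, 2 to 1 with DESeq2 and 1 with the compared groups alone. Leaving out each library gave these ranges for the ATF4 subset: 2 to 8 in dKO_EV against WT_EV, 1 to 2 in dKO_MUT against dKO_EV, 2 to 7 in dKO_PRMT1 against dKO_EV, 0 to 1 in dKO_PRMT1 against dKO_MUT, 4 to 8 in dKO_MUT against WT_EV and 6 to 12 in dKO_PRMT1 against WT_EV. For the ER subset they were 3 to 9, 0 to 4, 4 to 9, 0 to 3, 2 to 5 and 2 to 4 in the same order. Fewer libraries leave fewer degrees of freedom, and beyond that the cause was not tested. The median fold change of ER members in dKO_MUT against dKO_EV, 0.02, was 0.10 without dKO_EV replicate 2. At 2 libraries a group, low members such as Vldlr, Trib3 and Chac1 had wide errors.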
